A study of Mus musculus with 3 samples.

Results

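The 40 genes described here encode the subunits of the receptors for GABA and glutamate, the main inhibitory and excitatory transmitters of the brain. They were chosen by symbol among the 27998 genes of the count tables, as 16 GABA-A subunits (6 alpha, 3 beta, 3 gamma, 1 delta and 3 rho genes) and 24 glutamate receptor genes (4 AMPA, 5 kainate, 7 NMDA and 8 metabotropic). No measured value entered the choice. The cells were taken from mouse dorsal cortex on postnatal day 2 and profiled in 3 libraries, 1 for each genotype, with 10x Genomics 3' chemistry, which counts 1 tag at the 3' end of each captured transcript as a unique molecular identifier (UMI). The mutant libraries carried a MAP2k1/2-dcko genotype, either with Emx1-Cre or with hGFAP-Cre, and the control library came from mice with floxed Map2k1 and Map2k2, which the genotype field labels WT. Map2k1 and Map2k2 encode MEK1 and MEK2, the kinases that activate ERK. Emx1-Cre recombines in dorsal cortical progenitors before most cortical neurons are born, and hGFAP-Cre in radial glia later in gestation. All pups had received FlashTag, a dye that labels cells dividing at the ventricle, at embryonic day 18, and tdTomato-positive cells were sorted from papain-dissociated tissue. The allele that carries tdTomato, the litters and the number of pups pooled in each library are not given in the sources used here.

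GABA-A receptors are chloride channels of several subunits, usually alpha and beta subunits with a gamma or delta subunit, and the alpha subunit sets much of the sensitivity and location of the channel. AMPA, kainate and NMDA receptors are cation channels of several subunits. Edited GluA2, encoded by Gria2, keeps AMPA receptors nearly impermeable to calcium, and GluN2B, encoded by Grin2b, is the main GluN2 subunit before and at birth. Metabotropic glutamate receptors (Grm genes) act through G proteins, and in the young cortex Grm3 and Grm5 are known for their expression in astrocytes as well as in neurons.

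The libraries held 13214 (Emx1-Cre), 13139 (hGFAP-Cre) and 11886 (control) barcodes. Their total UMIs were 84016524 (Emx1-Cre), 89917586 (hGFAP-Cre) and 85480826 (control). The cells that passed the filters numbered 12173 (Emx1-Cre), 12065 (hGFAP-Cre) and 9537 (control), at median depths of 4984, 5321 and 6427 UMIs in the same order. Pairs of libraries shared 43 to 54 barcodes. Map2k1 stood at 13.9 (Emx1-Cre), 16.2 (hGFAP-Cre) and 16.6 CPM (control) over all kept cells and Map2k2 at 217, 214 and 196 CPM (UMIs per 1000000 UMIs of the same cells), but a 3' tag need not lie in the deleted part and so checks nothing. Xist, the RNA of the inactive X chromosome, stood at 0.123 and 0.948 CPM in the mutant libraries and at 1462 CPM in the control. The Y-linked gene Ddx3y stood at 37.1 and 45.5 CPM in the mutant libraries and at 0 CPM in the control, so the mutant cells were male and the control cells female. The genotype and sex cannot be told apart in any genotype comparison, also for the X-linked members Gria3 and Gabra3. The 29 clusters were made without the receptor genes and were named as 11 classes by marker genes. With 1 library per genotype, no genotype difference below has a replicate or a p-value, and intervals cover counting error only.

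Receptor transcripts made up the largest share of UMIs in excitatory neurons, at 1464 CPM summed over the 40 genes in the Emx1-Cre library, 1387 CPM in the hGFAP-Cre library and 1904 CPM in the control. Oligodendrocyte precursors came next in the control, at 1163, 808 and 1534 CPM in the same order of libraries, ahead of the interneuron lineage at 1216, 853 and 1053 CPM. Astroglia held 447 (Emx1-Cre), 322 (hGFAP-Cre) and 722 CPM (control), and excitatory intermediate progenitors, the committed dividing precursors of excitatory neurons, 278, 159 and 322 CPM. Microglia, which do not belong to the neural lineage, held 125, 70.6 and 92.8 CPM, in which Gria2 stood at 55 CPM in the Emx1-Cre, 41.9 CPM in the hGFAP-Cre and 48.5 CPM in the control library, and these levels are given as the background beside low values of other classes. Of the 40 members, 24 reached a mean of 10 CPM over the libraries in at least 1 class. The highest class was Cajal-Retzius neurons for 7 of these 24, oligodendrocyte precursors for 7, excitatory neurons for 6, astroglia for 3 and ependymal cells for 1. The other 16 members stayed under 10 CPM everywhere, and Gabra6, Gabrr2, Gabrr3, Grin2d, Grin3b and Grm6 had 2 to 23 UMIs each over all named classes.

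**Figure D1:**
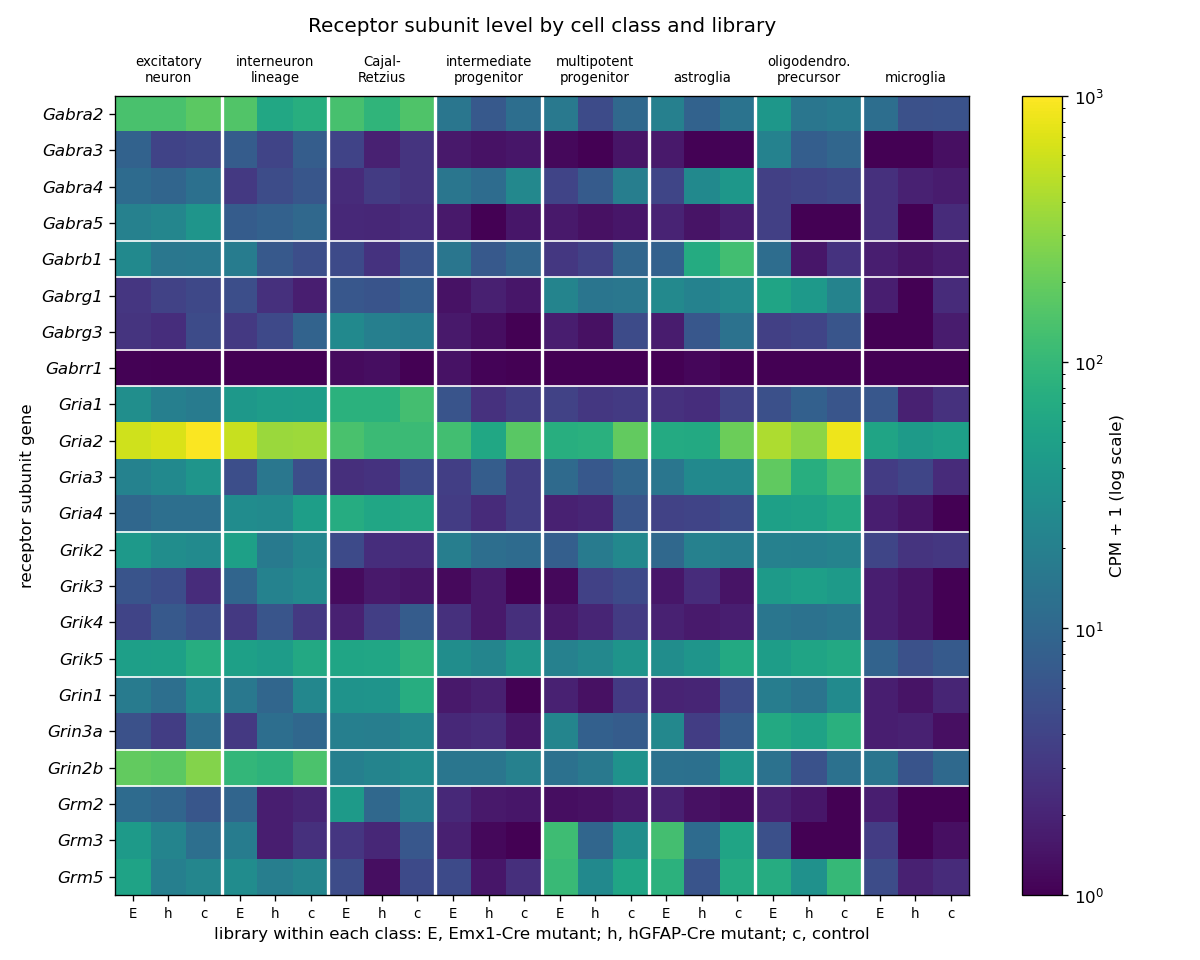
Level of 22 receptor genes that reached a mean of 10 CPM in a class (rows), as CPM + 1 on a log colour scale, in 8 cell classes, with the Emx1-Cre (E), hGFAP-Cre (h) and control (c) libraries side by side in each class. Gria2 is the brightest row, also in microglia, Grm3 and Grm5 are bright in progenitors, astroglia or oligodendrocyte precursors of some libraries, and Gabrr1, seen in ependymal cells, is dark in the classes drawn.

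Excitatory neurons carried 1 leading subunit in several families. Gria2 was the most abundant member, at 612 CPM in the Emx1-Cre, 673 CPM in the hGFAP-Cre and 961 CPM in the control library, and made up 91.2% in the Emx1-Cre, 92.3% in the hGFAP-Cre and 93.8% in the control library of the UMIs of the 4 AMPA genes. Grin2b, at 188 (Emx1-Cre), 174 (hGFAP-Cre) and 279.5 CPM (control), supplied 97.4% in the Emx1-Cre, 97.5% in the hGFAP-Cre and 96% in the control library of GluN2 UMIs, and its partner Grin2a, which rises in the cortex after birth, stood at 4.87 (Emx1-Cre), 4.46 (hGFAP-Cre) and 11.6 CPM (control). Grin1, the obligatory NMDA subunit, was at 16.7 (Emx1-Cre), 11.4 (hGFAP-Cre) and 26.4 CPM (control), far below Grin2b in UMIs. A 3' tag count does not grow with transcript length, but tag capture can differ from gene to gene, so such comparisons between genes are those of UMIs. Among GABA-A alpha genes Gabra2 (alpha2) led, with 74.5% in the Emx1-Cre, 77% in the hGFAP-Cre and 74.8% in the control library of alpha UMIs. Among kainate genes Grik5 (GluK5) and Grik2 (GluK2) shared the lead, at 48.2 (Emx1-Cre), 50.2 (hGFAP-Cre) and 72.6 CPM (control) and 41.2 (Emx1-Cre), 28.5 (hGFAP-Cre) and 26.5 CPM (control).

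Compared with astroglia, excitatory neurons had more of most receptor genes. By edgeR's quasi-likelihood test on UMIs summed by class and library, 19 of the 29 members tested were higher in excitatory neurons at an adjusted p under 0.05 and at least 2-fold, where 17.0% of the 13334 genes tested were, and 3 were lower, where 22.7% of genes were. The median log2 difference was 2.53 over the members and −6e-04 over all genes. Gabra5 (alpha5) had 19.6 (Emx1-Cre), 23.1 (hGFAP-Cre) and 35.5 CPM (control) in excitatory neurons, against 1.0 (Emx1-Cre), 0.426 (hGFAP-Cre) and 0.785 CPM (control) in astroglia, a log2 difference of 5.22 ± 0.46 (SE, edgeR adjusted p = 1.08e-08). The groups of 3 values did not overlap. Gabra2 differed by 3.64 ± 0.26 (SE), also past the threshold. Grin2b differed by 3.55 ± 0.26 (SE), Grin1 by 3.32 ± 0.29 (SE) and Gria2 by 2.88 ± 0.33 (SE), with edgeR adjusted p-values of 1.17e-09, 9.31e-09 and 3.15e-07.

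The 3 members lower in excitatory neurons than in astroglia were Gabrg1 (gamma1), Gabrb1 (beta1) and Grik1 (GluK1). Gabrg1 stood at 1.99 (Emx1-Cre), 2.87 (hGFAP-Cre) and 3.42 CPM (control) in excitatory neurons, against 24.6 (Emx1-Cre), 20.2 (hGFAP-Cre) and 25.1 CPM (control) in astroglia, a log2 difference of −3.03 ± 0.33 (SE, edgeR adjusted p = 1.48e-07). For Gabrb1 the difference was −1.74 ± 0.63 (SE, edgeR adjusted p = 0.0212), and its level in astroglia itself differed widely between libraries, as given below. Grik1 was near the limit of detection in both classes, at 0 (Emx1-Cre), 0 (hGFAP-Cre) and 0.155 CPM (control) against 0.804 (Emx1-Cre), 1.61 (hGFAP-Cre) and 2.62 CPM (control), so its size is poorly known. Gabra4, Grm3 and Grm5, which passed no threshold, differed by −0.77 ± 0.44 (SE), −0.83 ± 0.52 (SE) and −0.35 ± 0.44 (SE), with large errors, and both Grm genes varied between libraries in each class.

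Against excitatory intermediate progenitors, 26 of 29 members were higher in excitatory neurons, where 15.4% of genes were, and 0 were lower, where 15% of genes were (1 by DESeq2, and 1 with no count filter). The members left uncalled were Gabra4, Gabrb1 and Grik1. Gabra5 showed the largest difference, 6.69 ± 0.61 (SE, edgeR adjusted p = 4.04e-08), with 0.612 (Emx1-Cre), 0 (hGFAP-Cre) and 0.509 CPM (control) in progenitors. Grm3 differed by 6.37 ± 0.90 (SE, edgeR adjusted p = 8.36e-06) and was at or under 1 CPM in progenitors. Gabra4 (alpha4) had 14.1 (Emx1-Cre), 10.6 (hGFAP-Cre) and 24.4 CPM (control) in progenitors, against 10.2 (Emx1-Cre), 8.41 (hGFAP-Cre) and 11.8 CPM (control) in excitatory neurons. The median log2 difference was 2.90 over the members, against 0.04 over all genes.

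The interneuron lineage used the AMPA and kainate genes in other proportions than excitatory neurons. Gria4, Gria1 and Grik3 were higher in the interneuron lineage, by 1.55 ± 0.31 (SE, edgeR adjusted p = 0.00229), 1.0 ± 0.31 (SE, edgeR adjusted p = 0.0454) and 2.34 ± 0.59 (SE, edgeR adjusted p = 0.0138), and Grik1, detected at 0 (Emx1-Cre), 0.794 (hGFAP-Cre) and 2.67 CPM (control), by 4.16. These 4 of 29 members compare with 3.36% of all genes. Gria4, whose GluA4 subunit gives fast channels, stood at 27.9 (Emx1-Cre), 26.2 (hGFAP-Cre) and 46.8 CPM (control) in the interneuron lineage, against 9.16 (Emx1-Cre), 11.5 (hGFAP-Cre) and 11.6 CPM (control) in excitatory neurons. Lower were 5 members, where 3.53% of all genes were, with log2 differences of −3.15 for Grm3, −2.15 for Grm2, −1.82 for Gria3, −1.72 for Gabra5 and −1.09 for Grin2b. Only 114 cells of the Emx1-Cre library were in this class. Of them 63.2% lay in its smaller cluster, led by Dlx5 and called mixed below, against 41.3% of the hGFAP-Cre and 3.53% of the control cells. Summed excitatory neuron markers stood at 1248 (Emx1-Cre), 945.8 (hGFAP-Cre) and 889.6 CPM (control) in the interneuron class as a whole, and no sum is given for the mixed cluster. The number of calls depended on the libraries: 0 higher and 1 lower were called in the fit without the hGFAP-Cre library, 1 and 0 without the control, and 4 and 9 without the Emx1-Cre library, and 1 was lower without the library block.

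Cajal-Retzius neurons, the early-born Reln-expressing cells of layer 1, differed from excitatory neurons in most receptor families, with 7 members higher (12.7% of all genes) and 13 lower (12.4%). The contrast, like that of oligodendrocyte precursors below, was added after the values had been seen. The AMPA genes Gria1 and Gria4 were higher, and Gria2 and Gria3 lower. Gria1 was at 82.1 (Emx1-Cre), 81.1 (hGFAP-Cre) and 124 CPM (control) in Cajal-Retzius neurons, against 29.6 (Emx1-Cre), 18.9 (hGFAP-Cre) and 16.5 CPM (control) in excitatory neurons, a log2 difference of 2.14 ± 0.30 (SE, edgeR adjusted p = 8.65e-06). Gria4 was higher by 2.59 ± 0.29 (SE, edgeR adjusted p = 7.19e-07) and Gria2 was lower, with a log2 difference of −2.60 ± 0.33 (SE, edgeR adjusted p = 2.88e-06). Gria2 took 47.3% in the Emx1-Cre, 43.5% in the hGFAP-Cre and 36.5% in the control library of AMPA UMIs in Cajal-Retzius neurons, where Gria1 took 28.1% in the Emx1-Cre, 32.5% in the hGFAP-Cre and 41.1% in the control library. Gabrg3 (gamma3) was higher by 3.37 ± 0.54 (SE, edgeR adjusted p = 4.52e-05), at 25.2 (Emx1-Cre), 18.5 (hGFAP-Cre) and 17.2 CPM (control).

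NMDA and metabotropic genes of Cajal-Retzius neurons differed in both directions. Grin1 and Grin3a, which encodes a GluN3 subunit that lowers calcium entry, were higher by 1.34 ± 0.25 (SE, edgeR adjusted p = 2.41e-04) and 1.69 ± 0.59 (SE, edgeR adjusted p = 0.026), while Grin2a and Grin2b were lower, with log2 differences of −5.24 and −3.25. Grin2b stood at 18.8 (Emx1-Cre), 21.7 (hGFAP-Cre) and 26 CPM (control) in Cajal-Retzius neurons. Other members lower in these cells were Gabra5 (−4.42), Grm3 (−3.86), Grm5 (−3.80), Gria3 (−3.72) and Grik2 (−3.65), and Grik5 had 88.1% in the Emx1-Cre, 88.8% in the hGFAP-Cre and 90.6% in the control library of kainate UMIs. Grm2, an inhibitory metabotropic receptor, was higher by 1.36 ± 0.36 (SE, edgeR adjusted p = 0.00432). In Cajal-Retzius neurons it stood at 42 CPM (95% interval 37.9 to 46.5) in the Emx1-Cre library. It had 9.40 CPM (95% interval 6.43 to 13.3) in the hGFAP-Cre and 19.5 CPM (95% interval 14.1 to 26.4) in the control library. These intervals do not overlap. Excitatory neurons had 5.38 (control) to 10.3 CPM (Emx1-Cre), so the hGFAP-Cre level of Cajal-Retzius neurons lay within their range.

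The start region of Grm2 is shown because, among the 27 members with a RefSeq promoter window, it alone held both parts of the RE1 element, the site of the repressor REST, which silences many neuronal genes in other cells. The window runs from 250 bases before to 50 bases after the start on the minus strand, chr9:106656060-106656359 (GRCm38.p6), and capitals mark the parts TTCAGCACC and GGACAGC, 7 bases apart.
Grm2: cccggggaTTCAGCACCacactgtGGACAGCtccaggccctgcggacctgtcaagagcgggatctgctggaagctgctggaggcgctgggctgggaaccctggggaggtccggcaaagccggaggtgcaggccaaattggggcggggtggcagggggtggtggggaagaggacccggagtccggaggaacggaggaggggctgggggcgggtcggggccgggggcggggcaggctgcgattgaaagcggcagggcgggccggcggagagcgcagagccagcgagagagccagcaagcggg
The left part was found, on either strand, in 0.371% of all 32851 RefSeq windows and in 1 of 34 member windows, and the right part in 6.56% of all windows and in those of Gria2 and Grm2. The CRE TGACGTCA and the palindromic NFI motif were in 0 member windows, against 1.79% and 0.037% of all windows, and the E-box CAGATG was in 3 member windows (Gabra5, Gabrr1 and Grin3b), against 17.153% of all windows. The parts were sought singly, with no rule on their spacing, so the pair in Grm2 was not checked as a whole RE1. A match is a description of letters and not a bound site.

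**Figure D2:**
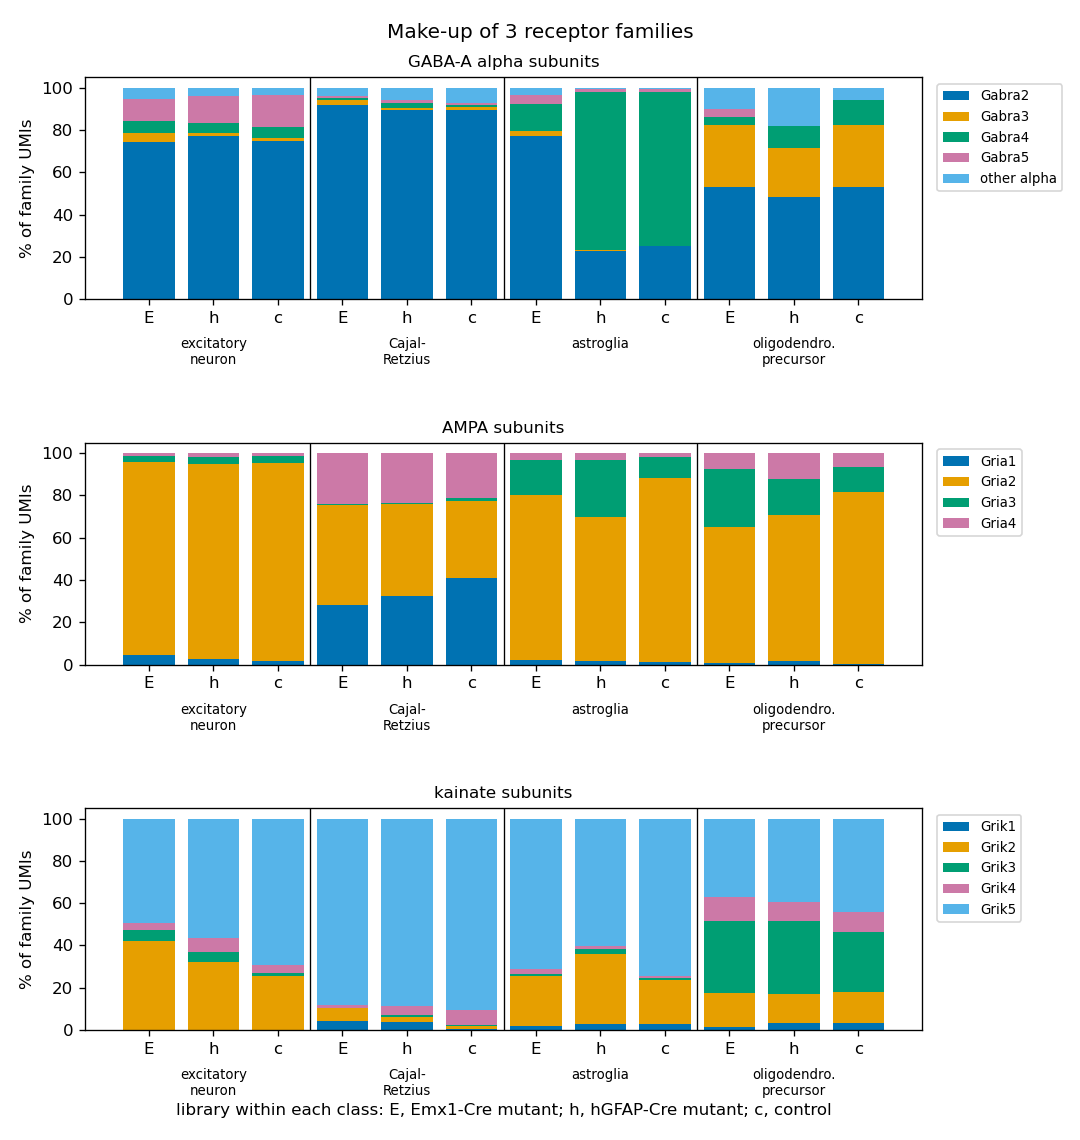
Share of each subunit in the UMIs of the GABA-A alpha, the AMPA and the kainate genes (y axis, percent of family UMIs), in 4 cell classes, with the Emx1-Cre (E), hGFAP-Cre (h) and control (c) libraries from left to right and the remaining alpha genes summed as other alpha. Gria2 fills most of the AMPA bar of excitatory neurons, Cajal-Retzius neurons split it between Gria1, Gria2 and Gria4, and in astroglia Gabra4 has 12.8% of alpha UMIs in the Emx1-Cre library, against 72.6% in the control.

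Oligodendrocyte precursors, which receive synapses from neurons, differed from astroglia in many receptor genes, with 12 members higher (11.1% of all genes) and 4 lower (12.3%). Grik3 was at 41.8 (Emx1-Cre), 48.8 (hGFAP-Cre) and 41.7 CPM (control) in precursors and differed by 5.63 ± 0.65 (SE, edgeR adjusted p = 1.85e-06), and Gabra3 (alpha3) by 5.66 ± 0.57 (SE, edgeR adjusted p = 4.05e-07). Grin3a, at 65 (Emx1-Cre), 52.5 (hGFAP-Cre) and 79.9 CPM (control), was higher by 2.67 ± 0.61 (SE, edgeR adjusted p = 0.00187), and Gria3 and Gria4 by 2.44 ± 0.39 (SE) and 3.94 ± 0.34 (SE). Precursors had all 4 AMPA genes above astroglia, since Gria2 and Gria1 differed by 2.06 and 1.46. Grm3 (−5.48), Gabrb1 (−4.06), Gabra4 (−2.69) and Grin2b (−1.15) were lower, and Grm3 had 4.45 (Emx1-Cre), 0 (hGFAP-Cre) and 0 CPM (control) in precursors. Leaving out the hGFAP-Cre or the control library left 1 lower member each. Grm5 was not called but was the main metabotropic gene of precursors, with 88.8% in the Emx1-Cre, 93.8% in the hGFAP-Cre and 98.3% in the control library of metabotropic UMIs.

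**Figure D3:**
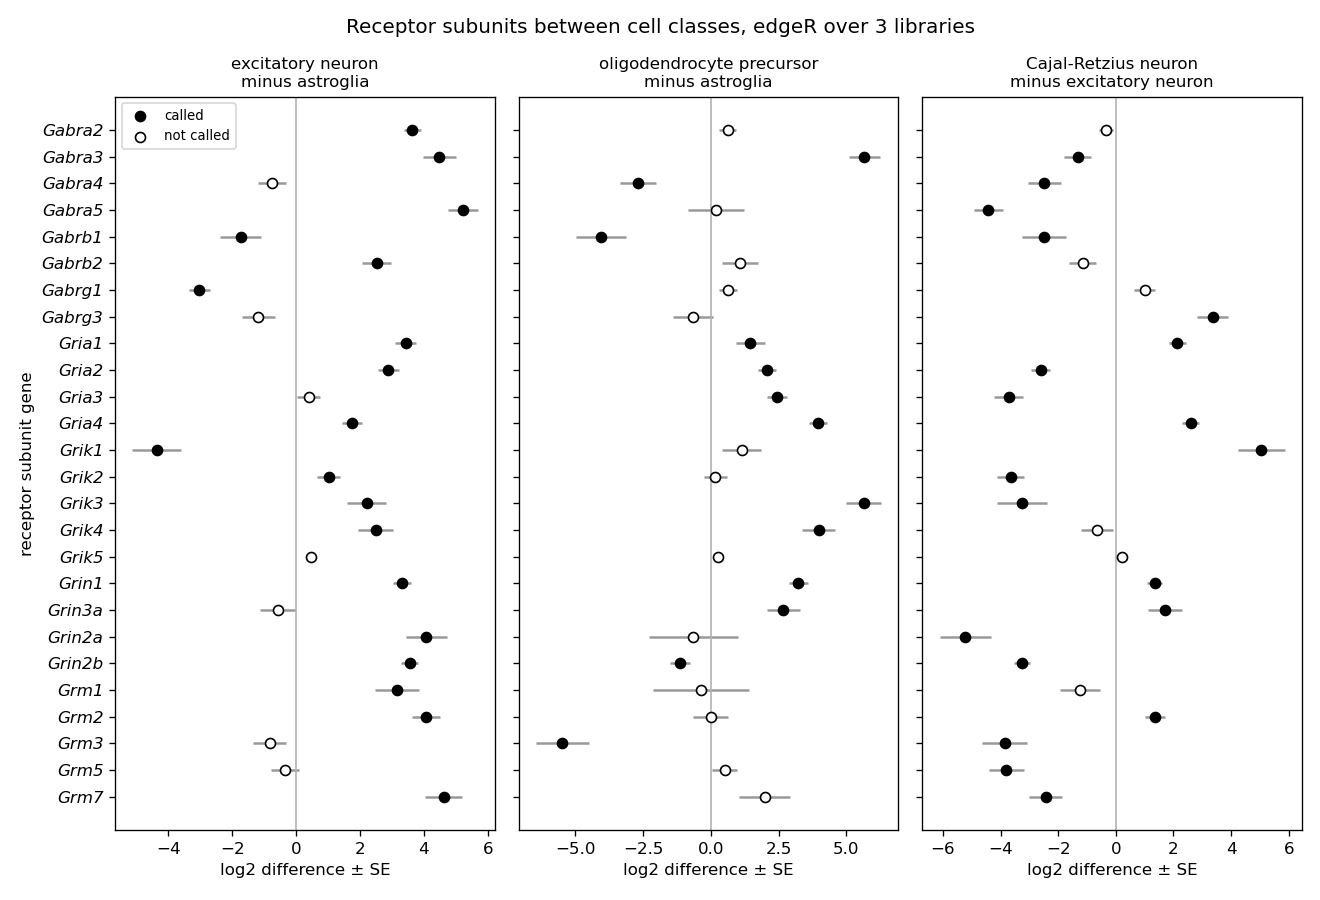
Log2 difference between cell classes for 26 of the 29 members tested (points) with its standard error (bars), from the edgeR fit over 3 libraries, for excitatory neurons minus astroglia, oligodendrocyte precursors minus astroglia and Cajal-Retzius minus excitatory neurons. Filled points passed an adjusted p of 0.05 and 2-fold and members of both signs are filled in each panel.

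Gabrr1, which encodes a rho subunit best known from the retina, was seen above 10 CPM in 1 of the 11 named classes, ependymal cells, the ciliated lining of the ventricle. It stood at 18.2 CPM (95% interval 15.8 to 20.8) in the Emx1-Cre and 31.7 CPM (95% interval 27.2 to 36.7) in the hGFAP-Cre library, against 5.55 CPM (95% interval 1.14 to 16.2) in the control, which had 3 UMIs in 32 ependymal cells. Endothelial and mural cells had 0 Gabrr1 UMIs.

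Between genotypes, astroglia held the largest differences of single members among the classes compared. In the Emx1-Cre library 2 of 12 members tested were at least 1.5-fold higher than in the control, where 8.69% of the 8304 genes at a mean of 10 CPM were, and 7 were lower, where 29.1% were. In the hGFAP-Cre library 0 were higher (10.2% of genes) and 7 lower (12.2% of genes). The median log2 ratio was −0.66 over the members and −0.28 over all genes in the Emx1-Cre library, and −0.70 and −0.06 in the hGFAP-Cre library. Both ratios use the same control library. Scaled by median of ratios, which moves the median of all genes to −0.03 and −0.02, the counts were 4 higher and 5 lower in the Emx1-Cre and 0 and 6 in the hGFAP-Cre library. Astroglia differed in make-up between the libraries, with 88.0% of Emx1-Cre cells in a cluster led by Has2, 69.6% of hGFAP-Cre cells in one led by Prm1, and 71.2% and 23.7% of control cells in clusters led by Chil1 and Lcat. Summed astroglial markers stood at 4489 (Emx1-Cre), 5309.7 (hGFAP-Cre) and 10762 CPM (control), with all 12 detected in each library, and summed neuronal markers at 382, 232 and 325 CPM. The part of these differences in the receptor ratios was not tested beyond the values by cluster given below.

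Of the GABA-A genes, 4 lie side by side on chromosome 5, in the order Gabrg1 (chr5:70751047-70842617), Gabra2 (chr5:70958392-71095849) and Gabra4 (chr5:71569734-71658308) on the minus strand and Gabrb1 (chr5:71657921-72149572) on the plus strand of GRCm38, and the Gabra4 and Gabrb1 genes overlap head to head by 388 bases at their 5′ ends, away from the 3′ ends that the tags count. Their start regions (RefSeq, GRCm38.p6, 250 bases before to 50 after the start) are shown to compare neighbours that did and did not differ, with CG dinucleotides in capitals, at chr5:70842568-70842867, chr5:71095800-71096099 and chr5:71658259-71658558 on the minus strand and chr5:71657671-71657970 on the plus strand.
Gabrg1: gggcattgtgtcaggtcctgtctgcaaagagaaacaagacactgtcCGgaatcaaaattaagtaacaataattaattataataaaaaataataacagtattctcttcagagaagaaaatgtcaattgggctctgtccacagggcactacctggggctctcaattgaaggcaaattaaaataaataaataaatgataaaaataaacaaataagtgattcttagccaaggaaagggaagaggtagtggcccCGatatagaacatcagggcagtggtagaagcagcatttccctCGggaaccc
Gabra2: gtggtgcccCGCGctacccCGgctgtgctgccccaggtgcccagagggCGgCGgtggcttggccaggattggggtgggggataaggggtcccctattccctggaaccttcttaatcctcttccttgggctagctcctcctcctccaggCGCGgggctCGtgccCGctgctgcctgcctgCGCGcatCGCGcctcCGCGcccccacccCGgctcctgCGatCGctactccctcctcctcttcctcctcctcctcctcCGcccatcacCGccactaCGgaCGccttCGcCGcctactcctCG
Gabra4: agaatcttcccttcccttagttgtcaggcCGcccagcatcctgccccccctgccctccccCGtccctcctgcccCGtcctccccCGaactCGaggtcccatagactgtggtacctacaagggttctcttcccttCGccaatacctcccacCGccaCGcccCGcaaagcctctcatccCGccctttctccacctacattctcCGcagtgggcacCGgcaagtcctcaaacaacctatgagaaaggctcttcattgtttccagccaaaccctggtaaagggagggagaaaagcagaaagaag
Gabrb1: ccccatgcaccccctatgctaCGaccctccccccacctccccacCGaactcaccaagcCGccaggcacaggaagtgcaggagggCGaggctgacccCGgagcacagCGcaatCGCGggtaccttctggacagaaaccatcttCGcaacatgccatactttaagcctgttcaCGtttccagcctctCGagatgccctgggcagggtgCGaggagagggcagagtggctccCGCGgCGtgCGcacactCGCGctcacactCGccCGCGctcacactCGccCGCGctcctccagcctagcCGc
These windows held 3, 25, 12 and 25 CG dinucleotides in the order shown, where the median was 7 over all windows and 11 over the 34 member windows. A second RefSeq window of Gabrb1, at chr5:71699682-71699981 and not shown, held 9.

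Gabrb1 in astroglia had 7.53 CPM (95% interval 5.93 to 9.45) in the Emx1-Cre and 69 CPM (95% interval 65.5 to 72.7) in the hGFAP-Cre library, against 121 CPM (95% interval 116 to 127) in the control, and microglia were under 1 CPM. Its head-to-head neighbour Gabra4 had 3.21 CPM in the Emx1-Cre, 25.2 CPM in the hGFAP-Cre and 37.5 CPM in the control library, a log2 ratio to control of −2.37 in the Emx1-Cre library. Both were lowest in the Emx1-Cre library. Gabrg1, in the same gene cluster, was at 24.6 CPM in the Emx1-Cre, 20.2 CPM in the hGFAP-Cre and 25.1 CPM in the control library, and these levels were within 1.5-fold of each other. Gabra2 was at 19.4 (Emx1-Cre), 7.71 (hGFAP-Cre) and 13 CPM (control), so that in the Emx1-Cre library it took 77.2% of alpha UMIs, and Gabra4 12.8%, where Gabra4 took 75.1% in the hGFAP-Cre library and 72.6% in the control. Has2-cluster cells were low in Gabrb1 in every library, at 3.91 (Emx1-Cre), 3.29 (hGFAP-Cre) and 6.25 CPM (control), and in the Emx1-Cre and hGFAP-Cre libraries in Gabra4, at 2.35 (Emx1-Cre), 3.29 (hGFAP-Cre) and 12.5 CPM (control). Control cells of the Chil1 cluster had 173 CPM of Gabrb1 and 47.4 CPM of Gabra4, and hGFAP-Cre cells of the Prm1 cluster 75.9 and 27.2 CPM. Gabrb1 was among the 10 genes that set the Chil1 cluster apart, although it was not used for clustering.

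The metabotropic genes Grm3 and Grm5, whose receptors sense glutamate around synapses in astrocytes, were high in other clusters than Gabrb1. Grm3 was at 126 CPM in the Emx1-Cre, 10.1 CPM in the hGFAP-Cre and 55.1 CPM in the control library in astroglia, with log2 ratios of 1.12 and −1.99. Grm5 was at 84.4 CPM in the Emx1-Cre, 5.06 CPM in the hGFAP-Cre and 67 CPM in the control library. Control and Emx1-Cre cells held both genes, and hGFAP-Cre cells were low in both. In the Has2 cluster Grm3 stood at 138 (Emx1-Cre), 28.9 (hGFAP-Cre) and 48.5 CPM (control) and Grm5 at 92.7 (Emx1-Cre), 44 (hGFAP-Cre) and 61 CPM (control), and in the control's Lcat cluster at 129 and 186 CPM. In the Prm1 cluster hGFAP-Cre cells had 11.5 CPM of Grm3 and 2.61 CPM of Grm5, and in the Ogn cluster 2.06 and 0.590 CPM. Grm3 was itself among the 10 leading genes of the Has2 cluster, though not used to form it.

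**Figure D4:**
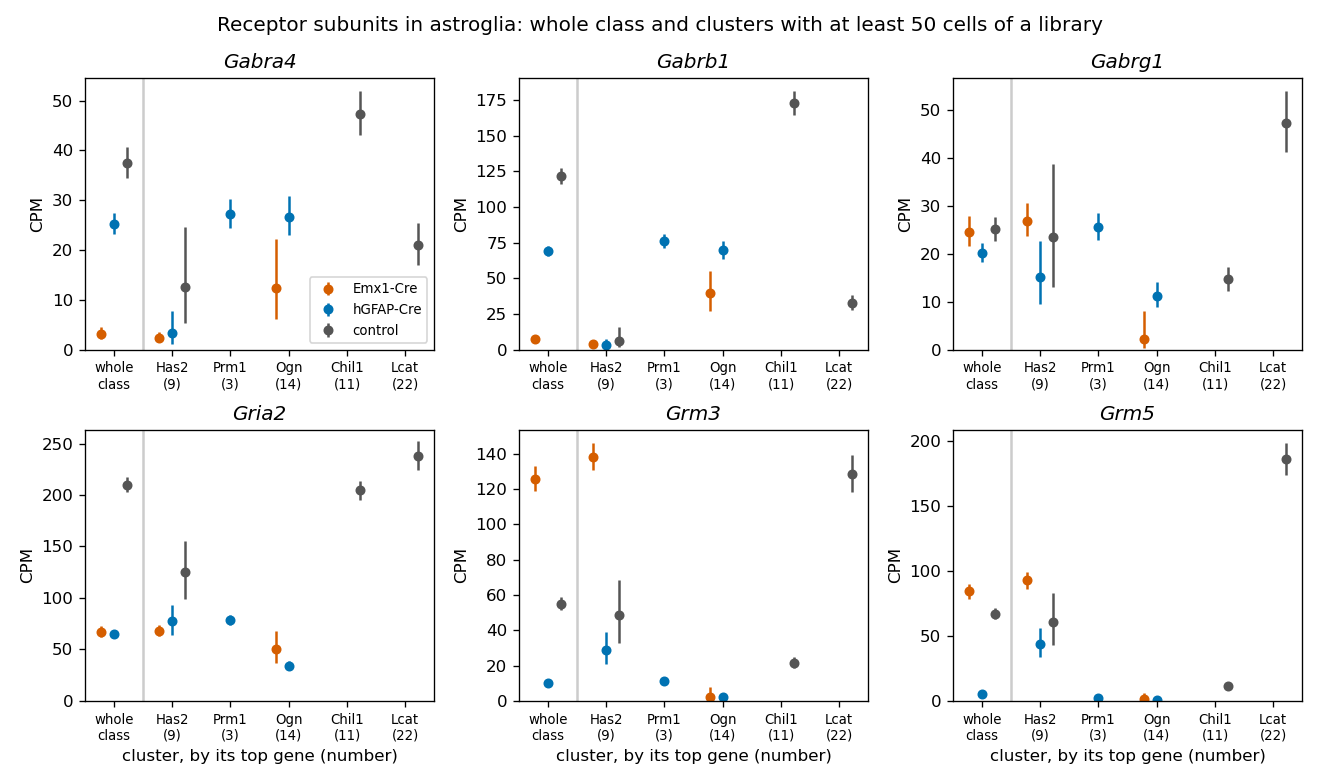
Levels (CPM, linear axes from 0) of 6 receptor genes in all astroglia and in each astroglial cluster with at least 50 cells of a library, with exact Poisson 95% intervals, coloured by library. Gabrb1 and Gabra4 are low in the Has2 cluster, while Grm3 and Grm5 are high in the Has2 and Lcat clusters and low in the Prm1 and Ogn clusters.

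Of 6 ionotropic glutamate receptor genes tested in astroglia, 3 were lower in both mutant libraries, namely Gria2, Grin2b and Grik5. Gria2 had 67.3 CPM in the Emx1-Cre, 64.8 CPM in the hGFAP-Cre and 210.0 CPM in the control library, log2 ratios of −1.57 and −1.62, where microglia had 55 (Emx1-Cre), 41.9 (hGFAP-Cre) and 48.5 CPM (control). Grin2b had 12.2 (Emx1-Cre), 11.7 (hGFAP-Cre) and 36.8 CPM (control), log2 ratios of −1.29 and −1.32, where microglia had 13.6 (Emx1-Cre), 5.01 (hGFAP-Cre) and 9.55 CPM (control). Free RNA and expression cannot be told apart at these mutant levels. Grik5 had 28.7 (Emx1-Cre), 35.5 (hGFAP-Cre) and 65 CPM (control), ratios of −1.05 and −0.79, in all libraries well above the 4.55 to 7.97 CPM of microglia. The Has2 cluster held 1251 Emx1-Cre, 137 hGFAP-Cre and 57 control cells. Clustered at resolution 2, a cluster led by Has2 held 1071 Emx1-Cre, 68 hGFAP-Cre and 24 control cells. The libraries may thus fill different parts of the Has2 cluster, and the part of this in its ratios was not tested. Over the Has2 cluster as a whole, Gria2 was at 68.1 (Emx1-Cre), 77.6 (hGFAP-Cre) and 125 CPM (control), ratios of −0.83 and −0.66. Grin2b, at 10.5 (Emx1-Cre), 12.5 (hGFAP-Cre) and 14.1 CPM (control) there, differed less. Of 9 members tested in that cluster, 3 were higher (12.1% of genes) and 1 lower (15.3%) in the Emx1-Cre library, and 1 was higher (13.5%) and 3 lower (14.7%) in the hGFAP-Cre library.

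Grin3a and Grm3 were higher in Emx1-Cre astroglia, and also in the Emx1-Cre cells of the Has2 cluster, whose parts may differ between libraries. Over all astroglia Grin3a reached the mean of 10 CPM for testing only through the Emx1-Cre library. Grm3 was a leading gene of the Has2 cluster, most of whose cells were Emx1-Cre cells. Grin3a was at 23.8 CPM in the Emx1-Cre, 2.46 CPM in the hGFAP-Cre and 6.48 CPM in the control library over all astroglia, and at 26.5 (Emx1-Cre), 10.5 (hGFAP-Cre) and 9.38 CPM (control) in the Has2 cluster, with log2 ratios of 1.33 over all and 1.13 within. The Grm3 ratio within it was 1.42. In the hGFAP-Cre library Grin3a had a ratio of −0.62 over all astroglia. Gria3 and Grik2, with ratios of −0.63 and −0.68 in Emx1-Cre astroglia, differed from that by cluster. In the Has2 cluster Gria3 had 14.3 (Emx1-Cre), 15.1 (hGFAP-Cre) and 3.13 CPM (control). Grik2 had 6.92 (Emx1-Cre), 7.89 (hGFAP-Cre) and 7.82 CPM (control) there. The control levels of Grin3a, Gria3 and Grik2 in this cluster rest on a few UMIs in 57 cells.

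The class named multipotent progenitors, by Egfr and Olig1 among other genes, was not alike in the 3 libraries. Its own 7 markers summed to 352 (Emx1-Cre), 1689 (hGFAP-Cre) and 2128 CPM (control), and the astroglial markers to 3225 (Emx1-Cre), 1346 (hGFAP-Cre) and 3349 CPM (control). The class's own markers were lowest in the Emx1-Cre cells, which the name does not describe well. Of its 631 Emx1-Cre cells, 624 lay in cycling cluster 10, which also held 155 hGFAP-Cre and 596 control cells and had 0 of the class's markers among its 10 leading genes. At resolution 2, cycling clusters named astroglia, multipotent progenitors and interneuron lineage held 763, 38 and 3 Emx1-Cre cells. They held 75, 95 and 72 hGFAP-Cre cells and 318, 201 and 253 control cells. How cluster 10 divides among them was not counted, so its cells may differ in type between libraries. The part of this in the ratios below was not tested. The values that follow are those of cluster 10 and of no named class. Grm3 was at 117 (Emx1-Cre), 12.2 (hGFAP-Cre) and 41.1 CPM (control), with log2 ratios of 1.41 and −1.42, and Grm5 at 106 (Emx1-Cre), 33.9 (hGFAP-Cre) and 72.8 CPM (control). Both genes were highest in the Emx1-Cre and lowest in the hGFAP-Cre library. Gria2 was at 75.6 (Emx1-Cre), 77.4 (hGFAP-Cre) and 199.7 CPM (control), Gabra4 at 3.11 (Emx1-Cre), 9.01 (hGFAP-Cre) and 24.8 CPM (control) and Grin3a at 22 (Emx1-Cre), 6.36 (hGFAP-Cre) and 6.96 CPM (control). Of 9 members, 2 were higher (7.72% of genes) and 4 lower (25.8%) in the Emx1-Cre library, and 0 were higher (5.61%) and 5 lower (18.1%) in the hGFAP-Cre library.

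In excitatory neurons, 4 of 16 members were at least 1.5-fold higher in the Emx1-Cre library, where 5.88% of 7896 genes were, and 3 lower, where 20.3% were. Among them Gria1 had a log2 ratio of 0.69, Gabra5 one of −0.72 and the X-linked Gria3 one of −0.68. Gria3 stood at 20.2 (Emx1-Cre), 25.9 (hGFAP-Cre) and 35.5 CPM (control). In the hGFAP-Cre library 1 was higher (4.66% of genes) and 2 lower (11.4%). Under median-of-ratios scaling these counts were 5 and 0, and 1 and 1. The median ratio was −0.21 over the members and −0.24 over all genes in the Emx1-Cre library, and −0.29 and −0.12 in the hGFAP-Cre library. The libraries filled different clusters of this class: 67.9% of Emx1-Cre cells lay in the cluster led by Cck, 46.5% of hGFAP-Cre cells in that led by Grp, and 44.9% and 34.0% of control cells in those led by Nos1 and Cntn2. Summed excitatory neuron markers were at 2878 (Emx1-Cre), 3163 (hGFAP-Cre) and 3496 CPM (control).

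Grm3, at 42.2 CPM in the Emx1-Cre, 21.4 CPM in the hGFAP-Cre and 11.6 CPM in the control library, and Grm5, at 53.9 CPM in the Emx1-Cre, 19 CPM in the hGFAP-Cre and 22.8 CPM in the control library, had the largest Emx1-Cre ratios, 1.51 and 1.08. In the cluster led by Mef2c and Ntf3, Grm3 had 46.8 (Emx1-Cre), 28.8 (hGFAP-Cre) and 31.9 CPM (control). Grm5 had 75.9 (Emx1-Cre), 37.4 (hGFAP-Cre) and 61.3 CPM (control) in those cells. Levels were higher in the cluster led by Rprml, with Grm3 at 101 (Emx1-Cre), 99.1 (hGFAP-Cre) and 67.4 CPM (control). Grm5 had 117 (Emx1-Cre), 58.5 (hGFAP-Cre) and 122 CPM (control) in the Rprml cluster. That cluster held 705 Emx1-Cre, 128 hGFAP-Cre and 49 control cells, which made up 15.7% of Emx1-Cre, 5.19% of hGFAP-Cre and 1.05% of control excitatory neurons. Within it, Grm5 was no higher in the Emx1-Cre library than in the control. Gabrd (delta) was seen there too, at 20.5 (Emx1-Cre), 12.8 (hGFAP-Cre) and 15.7 CPM (control), and was under 4 CPM in every other cluster and library. Gria2, with a class ratio of −0.65 in the Emx1-Cre library, differed in direction by cluster. In the Cck cluster it had 853 (Emx1-Cre), 791 (hGFAP-Cre) and 656 CPM (control), and in the Grp cluster 1158 (Emx1-Cre), 949 (hGFAP-Cre) and 583 CPM (control), higher in both mutant libraries. In the cluster led by Mef2c and Ntf3 it had 313 (Emx1-Cre), 302 (hGFAP-Cre) and 368 CPM (control), with log2 ratios of −0.23 and −0.28. Among control cells the largest Gria2 levels were in the Nos1 and Cntn2 clusters, 1098 and 1543 CPM, which hold most of the control cells.

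The excitatory neuron cluster with Mef2c and Ntf3 among its leading genes was filled by all libraries, with 477 Emx1-Cre, 440 hGFAP-Cre and 557 control cells at median depths of 6975, 9223 and 15344 UMIs in that order. Clustered at resolution 2, a cluster led by Ntf3, with Mef2c among its leading genes, held 470 Emx1-Cre, 427 hGFAP-Cre and 37 control cells. Another, led by Inhba and with Ntf3 and Gabra5 among its leading genes, held 1, 11 and 518 cells in that order. The libraries may thus fill different parts of the Mef2c cluster, and the part of this in its ratios was not tested. Over the Mef2c cluster as a whole, the NMDA genes were lower in both mutant libraries. Grin2b had 268 CPM in the Emx1-Cre, 278 CPM in the hGFAP-Cre and 487 CPM in the control library, log2 ratios of −0.85 and −0.80. Grin1 had 22.4 (Emx1-Cre), 13.4 (hGFAP-Cre) and 41.6 CPM (control), ratios of −0.77 and −1.34, and Grin2a 9.71 (Emx1-Cre), 10.8 (hGFAP-Cre) and 34.2 CPM (control), ratios of −1.41 and −1.32. Grin3a, under the level for testing, had 1.77 (Emx1-Cre), 4.15 (hGFAP-Cre) and 20.5 CPM (control). In each of these 4 genes the control stood above both mutant libraries. Gabra5, whose alpha5 subunit gives tonic inhibition, had 47.4 (Emx1-Cre), 56.9 (hGFAP-Cre) and 109.6 CPM (control), ratios of −1.13 and −0.89, and was also 1 of the 10 genes that set the cluster apart. In the Rprml cluster, with its 49 control cells, Gabra5 had 26.1 (Emx1-Cre), 34 (hGFAP-Cre) and 98.8 CPM (control) and Grin2b 225 (Emx1-Cre), 239 (hGFAP-Cre) and 439.6 CPM (control), again highest in the control.

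Other members of the Mef2c cluster were higher. Grik2 had 20.9 (Emx1-Cre), 17.1 (hGFAP-Cre) and 9.34 CPM (control), ratios of 0.85 and 0.62, and was also higher in both mutant libraries than in the control in the Cck cluster, at 44.9 (Emx1-Cre), 28.7 (hGFAP-Cre) and 16.7 CPM (control), and in the Grp cluster, at 36.5 (Emx1-Cre), 34.5 (hGFAP-Cre) and 18.8 CPM (control). Gabrb1 had 63.6 (Emx1-Cre), 27.6 (hGFAP-Cre) and 35.8 CPM (control) and Grm2 25 (Emx1-Cre), 19.3 (hGFAP-Cre) and 12 CPM (control). In that cluster 4 of 21 members were higher (6.83% of 7860 genes) and 4 lower (15.7%) in the Emx1-Cre library, and 1 was higher (7.53%) and 5 lower (12.4%) in the hGFAP-Cre library. The medians were −0.23 over the members and −0.14 over all genes in the Emx1-Cre library, and −0.41 and −0.07 in the hGFAP-Cre library. Grin1 was lower in the Cck cluster too, at 10.6 (Emx1-Cre), 6.22 (hGFAP-Cre) and 19 CPM (control), and in the Grp cluster, at 5.84 (Emx1-Cre), 7.21 (hGFAP-Cre) and 22.8 CPM (control).

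**Figure D5:**
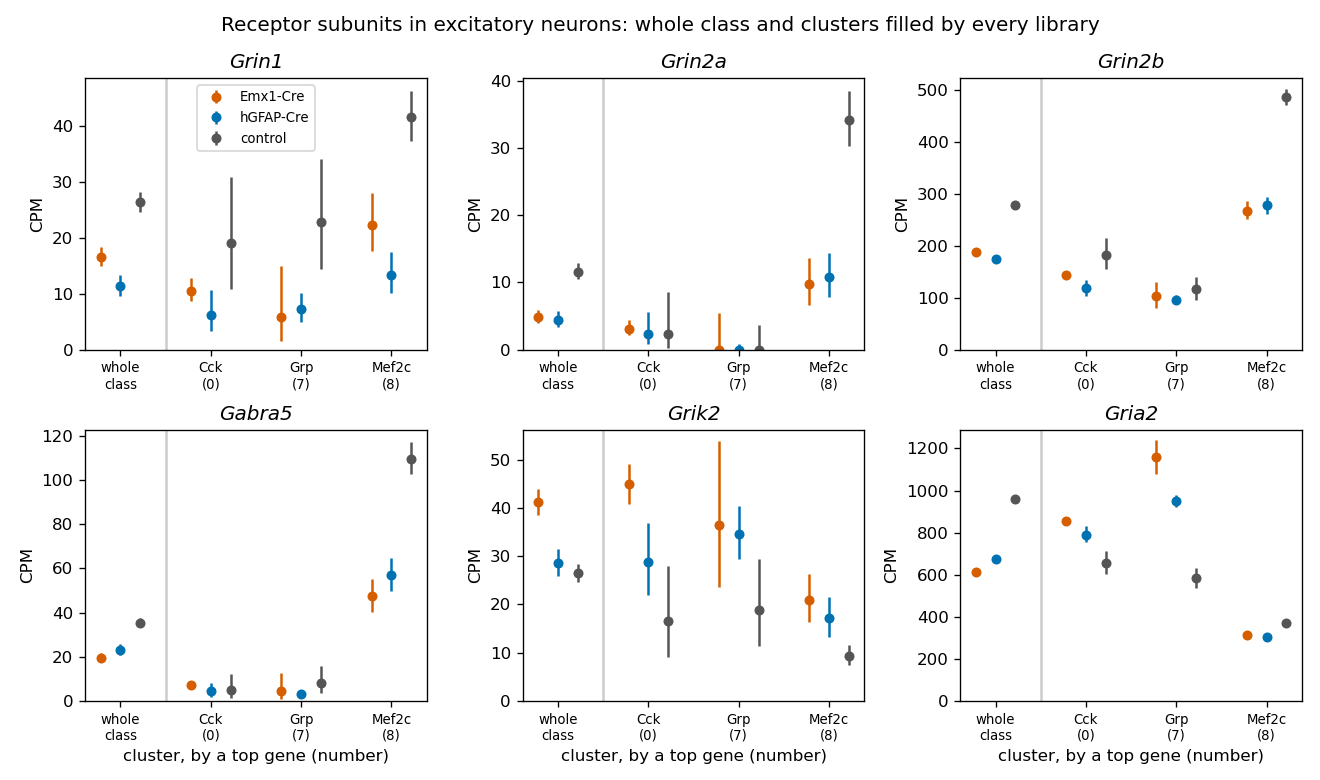
Levels (CPM, linear axes from 0) of 6 receptor genes in all excitatory neurons and in the 3 clusters that every library filled, with exact Poisson 95% intervals, coloured by library. In the Mef2c cluster the control points of Grin1, Grin2a, Grin2b and Gabra5 lie above those of both mutant libraries, and that of Grik2 below them.

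In excitatory intermediate progenitors 1 of 7 members was higher and 1 lower in the Emx1-Cre library, where 7.32% and 18.2% of 7879 genes were, and 0 higher and 4 lower in the hGFAP-Cre library, where 8.64% and 14.7% were. Gria2 had 122 (Emx1-Cre), 59.6 (hGFAP-Cre) and 171 CPM (control), a ratio of −1.45 in the hGFAP-Cre library, where microglia had 41.9 CPM. The libraries filled the clusters of this class unequally: 59.9% of Emx1-Cre, 58.8% of hGFAP-Cre and 31.3% of control cells lay in the cluster led by Neurog2, and 23.2%, 21.5% and 44.7% in that order in a cycling cluster led by Cenpa. In the Neurog2 cluster Gria2 had 123 (Emx1-Cre), 67.7 (hGFAP-Cre) and 112 CPM (control), log2 ratios of 0.12 and −0.69. In the Cenpa cluster it had 127 (Emx1-Cre), 56.7 (hGFAP-Cre) and 201 CPM (control), log2 ratios of −0.64 and −1.74. It was below the control in the hGFAP-Cre library in both clusters, and in the Emx1-Cre library in the Cenpa cluster. Of 7 measured genes of the pan-neuronal list, 1 was higher and 4 were lower in hGFAP-Cre progenitors, and the list summed to 2148 (Emx1-Cre), 1390 (hGFAP-Cre) and 1463 CPM (control). Excitatory neuron markers summed to 456 (Emx1-Cre), 326 (hGFAP-Cre) and 722 CPM (control). The part of these markers in the Gria2 ratio was not tested. Gabra4 had 14.1 (Emx1-Cre), 10.6 (hGFAP-Cre) and 24.4 CPM (control), ratios of −0.63 and −0.91. Grik5 had a ratio of −0.62 in the hGFAP-Cre library, and Grik2 one of 0.62 in the Emx1-Cre library, with overlapping 95% intervals.

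In the interneuron lineage 3 of 12 members were higher and 3 lower in the Emx1-Cre library (10.7% and 18.8% of 7989 genes), and 0 higher and 3 lower in the hGFAP-Cre library (7.06% and 13.7%). Higher in the Emx1-Cre library were Gabra2 at 0.96, Grik2 at 0.99 and Gria2 at 0.60, and those lower included Grik3 at −1.14 and Gria4 at −0.65, whose 95% intervals overlapped those of the control. Without the mixed cluster, Gria2 had 231 (Emx1-Cre), 191 (hGFAP-Cre) and 329 CPM (control), and its ratio was −0.50. Gria4 then had a ratio of 0.21, so that the signs of Gria2 and Gria4 turned, while Grik2 had 70.0 (Emx1-Cre), 15.9 (hGFAP-Cre) and 22.7 CPM (control) and kept its direction, in 42 Emx1-Cre cells. In the hGFAP-Cre library Grin1 had 8.73 CPM, against 23.8 CPM in the control, a ratio of −1.07. It was −0.87 without that cluster. Grin2b and Gria4 had ratios of −0.70 and −0.73, and −0.49 and −0.15 without it.

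Oligodendrocyte precursors, with 276 Emx1-Cre, 258 hGFAP-Cre and 66 control cells, had Gria2 at 428 (Emx1-Cre), 301 (hGFAP-Cre) and 838 CPM (control), ratios of −0.96 and −1.46. Grm5 was at 70.3 (Emx1-Cre), 31.5 (hGFAP-Cre) and 101 CPM (control), a ratio of −1.54 in the hGFAP-Cre library. Gabrg1, which takes most gamma UMIs of these cells, was at 56.1 (Emx1-Cre), 40.4 (hGFAP-Cre) and 20.9 CPM (control), highest in the Emx1-Cre and lowest in the control library. Of 14 members 3 were higher (12.6% of genes) and 2 lower (20.2%) in the Emx1-Cre library, and 1 was higher (10.6%) and 4 lower (19.2%) in the hGFAP-Cre library. In Cajal-Retzius neurons Grin1 had 33.9 (Emx1-Cre), 35 (hGFAP-Cre) and 72 CPM (control), and both mutant libraries were below the control, which had 109 of these cells. Of 12 members there, 1 was higher (5.14%) and 1 lower (14.2%) in the Emx1-Cre library, namely Grm2 and Grin1, and 0 were higher (4.89%) and 4 lower (14.5%) in the hGFAP-Cre library.

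Genes that work with the receptors were counted in the same way, and the background shares are those given for the receptor genes of each class. Of 8 auxiliary subunit genes measured in excitatory neurons, 1 higher and 3 lower in the Emx1-Cre library and 2 higher and 3 lower in the hGFAP-Cre library were called. Cacng2 (stargazin), which brings AMPA receptors to the membrane, had 35.9 against 106 CPM in the control, log2 ratio −1.44, in the Emx1-Cre library, and 41.6 against 106 CPM in the control, log2 ratio −1.25, in the hGFAP-Cre library. Among 16 scaffold genes, 1 higher and 4 lower in the Emx1-Cre library and 1 higher and 2 lower in the hGFAP-Cre library were called. The scaffold gene Shank1 had 33.5 against 98.3 CPM in the control, log2 ratio −1.42, in the Emx1-Cre library, where Dlg4 (PSD-95), the main scaffold of NMDA receptors, had 69.2 against 25.7 CPM in the control, log2 ratio 1.27. Cacng2 and Shank1 were low, and Dlg4 high, in the Emx1-Cre library. Cacng2 was itself among the leading genes of the Cntn2 cluster. That cluster held 0.512% of Emx1-Cre, 1.83% of hGFAP-Cre and 34.0% of control excitatory neurons. The part of this make-up in the Cacng2 ratios was not tested. For 6 glutamate transport genes the counts were 0 higher and 2 lower in the Emx1-Cre library and 0 higher and 1 lower in the hGFAP-Cre library, and the vesicular transporter gene Slc17a6 (VGLUT2) had 19.2 against 73.2 CPM in the control, log2 ratio −1.69, in the Emx1-Cre library. The single measured gene of GABA synthesis and transport, both chloride transporters and both GABA-B receptor genes differed by less than 1.5-fold in both libraries. In the pan-neuronal list of 8 genes the counts were 2 higher and 1 lower in the Emx1-Cre library and 0 higher and 0 lower in the hGFAP-Cre library.

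In astroglia several genes that clear transmitter were lower in the mutant libraries. Slc1a2 (GLT-1), the main glutamate transporter of astrocytes, had 175 against 754 CPM in the control, log2 ratio −2.08, in the Emx1-Cre library, and 273 against 754 CPM in the control, log2 ratio −1.45, in the hGFAP-Cre library. Slc6a11 (GAT-3), a GABA transporter, had 101 against 209.9 CPM in the control, log2 ratio −1.03, in the Emx1-Cre library, and 51.1 against 209.9 CPM in the control, log2 ratio −1.94, in the hGFAP-Cre library. Slc1a2 and Slc1a3 are also among the astroglial markers of the class, whose sum was lower in both mutant libraries. The counts were 0 higher and 3 lower in the Emx1-Cre library and 0 higher and 3 lower in the hGFAP-Cre library for 4 glutamate transport genes, and 0 higher and 1 lower in the Emx1-Cre library and 0 higher and 3 lower in the hGFAP-Cre library for 3 GABA genes. For 8 auxiliary genes they were 1 higher and 2 lower in the Emx1-Cre library and 2 higher and 2 lower in the hGFAP-Cre library, and for 10 scaffold genes 1 higher and 2 lower in the Emx1-Cre library and 0 higher and 3 lower in the hGFAP-Cre library. The measured chloride transporter differed by less than 1.5-fold, and 2 GABA-B receptor genes gave 0 higher and 0 lower in the Emx1-Cre library and 0 higher and 1 lower in the hGFAP-Cre library. The pan-neuronal list, with 4 genes measured in astroglia, gave 1 higher and 0 lower in the Emx1-Cre library and 0 higher and 2 lower in the hGFAP-Cre library.

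In intermediate progenitors the counts were 0 higher and 2 lower in the Emx1-Cre library and 0 higher and 1 lower in the hGFAP-Cre library for 3 GABA genes and 0 higher and 3 lower in the Emx1-Cre library and 0 higher and 2 lower in the hGFAP-Cre library for 5 glutamate transport genes. Slc1a3 (GLAST), a transporter of radial glia and astrocytes, had 47.9 against 188 CPM in the control, log2 ratio −1.87, in the Emx1-Cre library. They were 0 higher and 1 lower in the Emx1-Cre library and 0 higher and 2 lower in the hGFAP-Cre library for 5 auxiliary genes and 2 higher and 3 lower in the Emx1-Cre library and 1 higher and 2 lower in the hGFAP-Cre library for 12 scaffold genes. The single measured chloride transporter was higher in the Emx1-Cre library, and the single GABA-B gene lower in the hGFAP-Cre library. The pan-neuronal list, with 7 genes measured, gave 2 higher and 2 lower in the Emx1-Cre library and 1 higher and 4 lower in the hGFAP-Cre library.

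In the interneuron lineage, 5 GABA genes gave 0 higher and 5 lower in the Emx1-Cre library and 0 higher and 2 lower in the hGFAP-Cre library, with Gad2, an enzyme that makes GABA, at 137 against 369 CPM in the control, log2 ratio −1.39, in the Emx1-Cre library. Excitatory genes went the other way in that class, with Slc17a6 at 57.9 against 6.68 CPM in the control, log2 ratio 2.43, in the Emx1-Cre library, and Neurod2, a marker of excitatory neurons, at 191 against 42.8 CPM in the control, log2 ratio 2.04. The counts were 1 higher and 2 lower in the Emx1-Cre library and 1 higher and 3 lower in the hGFAP-Cre library for 5 glutamate transport genes and 3 higher and 2 lower in the Emx1-Cre library and 2 higher and 5 lower in the hGFAP-Cre library for 10 auxiliary genes. For 16 scaffold genes they were 1 higher and 5 lower in the Emx1-Cre library and 1 higher and 5 lower in the hGFAP-Cre library, and for the 2 chloride transporters 1 higher and 0 lower in the Emx1-Cre library and 0 higher and 1 lower in the hGFAP-Cre library. Of the 2 GABA-B genes 0 were called, and the 8 pan-neuronal genes gave 2 higher and 0 lower in the Emx1-Cre library and 2 higher and 1 lower in the hGFAP-Cre library.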

How the data were processed

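The authors deposited UMI counts per gene and called barcode, made with Cell Ranger 5.0.0 per the file headers. The submitters' processing notes name genome build mm10. From these counts, cells with at least 1000 genes and under 10% mitochondrial UMIs were kept. Called doublets (Scrublet in scanpy 1.11.5) were removed, 7.77% (Emx1-Cre), 8.15% (hGFAP-Cre) and 4.26% (control). The lowest UMI count of a deposited barcode was 2644 (Emx1-Cre), 3065 (hGFAP-Cre) and 500 (control), so cells were called at unlike depths. Clusters (2000 variable genes, 30 components, 15 neighbours, Leiden resolution 1) were made without receptor, sex-linked marker, mitochondrial, ribosomal and haemoglobin genes. Partner and ERK response genes were left out too, save those that are class markers. Slc17a6, Gad2, Slc1a2, Slc1a3 and Neurod2, reported above as partner genes, are such markers and could shape and name the clusters. Each cluster was named for the class with most raised markers (2-fold over the mean of other clusters and in at least 25% of its cells, at least 3 markers). That rule was chosen after the clusters had been seen, and 10.4% (Emx1-Cre), 21.2% (hGFAP-Cre) and 2.39% (control) of cells stayed unnamed.

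UMIs were summed by class and library and given as CPM with exact Poisson 95% intervals. Family shares have exact Clopper-Pearson intervals, kept in the tables. Classes were compared with edgeR 4.0.16 (R 4.3.3) by the quasi-likelihood test, TMM scaling, library as a block and Benjamini-Hochberg adjustment over 13334 genes, called at an adjusted p under 0.05 and 2-fold. Its errors come from libraries that differ in genotype. Mutant and control were compared as log2((CPM + 5)/(CPM + 5)), called at 1.5-fold among genes at a mean of at least 10 CPM, a scale that understates the change of low genes. A gene can reach that mean through a single library in which it is high, as Grin3a did in astroglia and in cluster 10 through the Emx1-Cre library. Nothing in the labels gives separate animals, so spreads measure the libraries. The edgeR step was tested on simulated counts with known changes.

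The members, gene lists and tests were chosen with earlier results of these data known. Some members are in every fit and count but are not reported singly here. All others could be named, with up to 10 of those at least 1.5-fold apart per comparison, though not every such member is given. Up to 4 partner genes per list were named by size of ratio. Values of single clusters, the contrasts of Cajal-Retzius neurons and oligodendrocyte precursors and the setting without the mixed interneuron cluster were added after seeing the data. Alternatives were DESeq2 1.42.0, other pseudocounts, filters, scalings, resolutions and class rules, thinning, and leaving out each library. Promoter windows came from RefSeq (GRCm38.p6), for 27 of 40 members in 34 windows. No protein sequences were used here.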

Additional observations from a re-analysis of the deposited data

Results flagged for a closer look

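Receptor genes whose log2 ratio to control had opposite signs in different cell classes of the same mutant library stood out. The differences between classes were not tested, since each genotype has 1 library. Gabrb1 had a ratio of 0.60 in excitatory neurons and −3.33 in astroglia of the Emx1-Cre library. Gria2 had 0.60 in the interneuron lineage, −0.65 in excitatory neurons and −1.57 in astroglia of that library. Without the mixed interneuron cluster the first of these was −0.50, so that Gria2 was then below the control in each of these classes. Grik2 had 0.99 in the interneuron lineage and −0.68 in astroglia of the Emx1-Cre library. Grm3 had 0.67 in excitatory neurons and −1.99 in astroglia of the hGFAP-Cre library.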

How the results depend on the processing

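Of 358 counts recomputed under an alternative, 274 stayed within 1.5 times the reported count and 84 moved. Most of those that moved were counts of 0 to 5 members. Of 468 recomputed log2 ratios of called members reported here, 387 kept their direction and 1.5-fold call, 78 kept the direction alone and 3 turned. The turned ratios were all in Emx1-Cre interneurons: Gria4 at 0.072 under resolution 2, and Gria4 at 0.21 and Gria2 at −0.50 without the mixed interneuron cluster. 124 of 568 family shares and 147 of 888 levels left their 95% counting interval. The values below are to be set against the counts in the text, and for all partner genes together against 1 higher and 8 lower (progenitors hGFAP-Cre), 6 higher and 14 lower (interneurons Emx1-Cre), 16 lower (interneurons hGFAP-Cre). Clustering at resolution 2 gave 0 higher (excitatory neurons hGFAP-Cre), 2 lower (progenitors hGFAP-Cre), 1 lower (interneurons Emx1-Cre), 1 lower (interneurons hGFAP-Cre), 8 lower (interneurons over excitatory neurons), 2 higher and 5 lower (partner genes in progenitors hGFAP-Cre), 13 higher and 9 lower (partner genes in interneurons Emx1-Cre), 7 lower (partner genes in interneurons hGFAP-Cre). Cells weighted alike gave 5 lower (excitatory neurons Emx1-Cre), 0 higher (excitatory neurons hGFAP-Cre), 2 lower (progenitors hGFAP-Cre), 5 lower (interneurons Emx1-Cre). Cells thinned to 3000 UMIs gave 1 lower (interneurons hGFAP-Cre). Markers compared with all other cells gave 2 higher and 0 lower (progenitors Emx1-Cre), 1 higher and 1 lower (progenitors hGFAP-Cre), 1 lower (excitatory neurons over astroglia), 2 higher (interneurons over excitatory neurons). Keeping doublets gave 0 higher (excitatory neurons hGFAP-Cre), 4 higher (progenitors Emx1-Cre), 1 higher (progenitors hGFAP-Cre), 4 lower (astroglia hGFAP-Cre), 2 higher (interneurons over excitatory neurons). Cells assigned to classes 1 by 1 gave 5 lower (excitatory neurons Emx1-Cre), 5 lower (excitatory neurons hGFAP-Cre), 0 higher and 5 lower (progenitors Emx1-Cre), 7 lower (progenitors hGFAP-Cre), 1 higher (interneurons over excitatory neurons). Joining unnamed clusters to the nearest class gave 0 higher (excitatory neurons hGFAP-Cre), 2 higher and 0 lower (progenitors Emx1-Cre), 1 higher and 1 lower (progenitors hGFAP-Cre). Median-of-ratios scaling gave 0 lower (excitatory neurons Emx1-Cre), 1 lower (excitatory neurons hGFAP-Cre), 0 lower (progenitors Emx1-Cre), 2 lower (progenitors hGFAP-Cre), 4 higher (astroglia Emx1-Cre). No filter on low values gave 8 higher and 5 lower (excitatory neurons Emx1-Cre), 4 lower (excitatory neurons hGFAP-Cre), 2 higher (progenitors Emx1-Cre), 1 higher (progenitors hGFAP-Cre), 8 higher and 8 lower (interneurons Emx1-Cre), 1 higher and 8 lower (interneurons hGFAP-Cre), 2 lower (the Has2 cluster Emx1-Cre), 2 higher and 5 lower (the Has2 cluster hGFAP-Cre). A pseudocount of 1 CPM gave 2 higher and 8 lower (the Mef2c cluster hGFAP-Cre). A pseudocount of 20 CPM gave 2 higher and 1 lower (excitatory neurons Emx1-Cre), 0 higher and 1 lower (excitatory neurons hGFAP-Cre), 0 higher and 0 lower (progenitors Emx1-Cre), 1 lower (progenitors hGFAP-Cre), 1 lower (interneurons Emx1-Cre), 0 higher (the Mef2c cluster Emx1-Cre), 0 higher (the Mef2c cluster hGFAP-Cre), 0 lower (the Has2 cluster hGFAP-Cre). A minimum of 2000 genes per cell gave 7 higher (excitatory neurons Emx1-Cre), 2 higher (excitatory neurons hGFAP-Cre), 4 higher (Cajal-Retzius over excitatory neurons), 1 lower (excitatory neurons over astroglia). Without the mixed interneuron cluster there were 1 higher (interneurons hGFAP-Cre). DESeq2 gave 1 lower (excitatory neurons over progenitors). No filter on low counts in edgeR gave 5 lower (excitatory neurons over astroglia), 1 lower (excitatory neurons over progenitors). Without the replicate block (the library) edgeR gave 1 lower (interneurons over excitatory neurons). Leaving out 1 library at a time gave 2 to 5 lower (excitatory neurons over astroglia), 0 to 4 higher (interneurons over excitatory neurons), 0 to 9 lower (interneurons over excitatory neurons), 1 to 4 lower (oligodendrocyte precursors over astroglia). The libraries served as the replicate block of the class comparisons, and it changed no other count by over 1.5 times. With a minimum of 2000 genes per cell the interneuron class had no value. The cause of these shifts was not tested, except that fewer genes pass when a pseudocount is large and more are counted with no filter. Depth limits members under about 10 CPM and any class with few cells in a library (32 ependymal, 66 oligodendrocyte precursor and 109 Cajal-Retzius cells in the control, 114 interneurons in the Emx1-Cre library). With 1 library per genotype, library and genotype cannot be told apart.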

Other observations

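The largest cluster without a name, led by Sstr2, Hs3st1 and Neurod1 and lying between intermediate progenitors and neurons by its markers, held 1211 Emx1-Cre, 2154 hGFAP-Cre and 211 control cells and entered no comparison above. Its main AMPA gene was Gria2, at 702 CPM in the Emx1-Cre, 523 CPM in the hGFAP-Cre and 419 CPM in the control library. Gria1 was at 39.1 CPM in the Emx1-Cre, 33.4 CPM in the hGFAP-Cre and 9.95 CPM in the control library. Both genes were highest in the Emx1-Cre and lowest in the control library, the reverse of the order that Gria2 had over all excitatory neurons. Grin2b stood at 39.8 (Emx1-Cre), 34.8 (hGFAP-Cre) and 22.2 CPM (control) and Gabra2 at 45.8 (Emx1-Cre), 43.3 (hGFAP-Cre) and 37.5 CPM (control) in the same cells.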
